A study of Arabidopsis thaliana with 4 samples.

Results

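The genes described here are the cyclins, cyclin-dependent kinases (CDKs), CDK inhibitors and MCM genes of Arabidopsis thaliana, measured in seedlings of the receptor kinase mutant fer-4 and of wild type (WT). They were chosen by gene name in the authors' tables, where 75 genes carry a name of the A-, B-, D-, H-, T-, U- or P-type cyclins, of CDKA to CDKG, of the KRP and SMR inhibitors or of MCM. Of these, 72 had a mean of at least 0.5 FPKM (a fragment count corrected for gene length and for the depth of the library) over the 4 libraries, among 24252 genes listed in all. The 3 genes under that limit were CYCB1-5, CYCD7-1 and CYCT1-1, with means of 0.218, 0.0624 and 0.0156 FPKM, and the lowest genes inside it were CYCT1-2, CYCA2 and CYCU4-2, with means of 0.652, 0.684 and 0.780 FPKM.

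The study compared fer-4 seedlings with WT seedlings by mRNA sequencing, with 2 libraries per genotype. Both genotypes were in the Col-0 background, and whole seedlings were taken at 7 days of age, untreated, from vertical plates of reduced-strength Murashige and Skoog medium kept in a 16 h light and 8 h dark cycle. The mutant carries an allele of FERONIA (FER), a receptor kinase of the cell surface that binds RALF peptides and acts in cell expansion, and its labels give the genotype as FERONIA-/-. It stands for a single allele, and no complemented line is among the samples. Whether the replicates are separate plates or seed lots is not in the labels, and p-values therefore reflect the spread among these 4 libraries alone, which can be technical. Whole seedlings mix dividing cells with many cells that have left the cycle, and in such RNA fewer dividing cells and less RNA per dividing cell cannot be told apart.

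The plant cell cycle is driven by CDKs that are active only with a cyclin bound. D-type cyclins with CDKA phosphorylate the retinoblastoma-related protein RBR, which frees E2F factors to turn on S-phase genes such as the MCM helicase subunits. A- and B-type cyclins with CDKA and the plant-specific CDKB kinases carry cells through G2 and mitosis, and many of their genes carry MSA elements read by MYB3R factors. KRP and SMR proteins bind and inhibit CDK complexes, and a number of them act where cells leave mitosis and begin endoreduplication, the repeated copying of DNA without division.

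The libraries were of like depth, with an estimated 19.5 to 21.8 M fragments each, read from the spacing of the lowest values, since the files hold no counts. FER itself had 60.6 and 62.1 FPKM in the fer-4 libraries, against 89.0 and 91.9 FPKM in the WT libraries, a log2 fold change of -0.55 ± 0.08 (SE; adjusted p = 0.00648, limma). The transcript was thus lower but present in the libraries labelled fer-4. The files do not show which stretch of FER those fragments came from.

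Few cell cycle genes were called different between the genotypes, and a gene not called is not shown to be unchanged. On the scale of log2(FPKM + 1), 6 of the 72 genes were higher in fer-4 and 5 were lower at an adjusted p below 0.05 (limma, adjusted over all 20284 genes tested). Of all tested genes, 14.1% were called higher and 8.76% lower, against 8.33% and 6.94% of the cell cycle genes, so the cell cycle genes were called no more often than the background. The median log2 fold change was -0.10 over the 72 genes and 0.01 over all tested genes, with 28 estimates above 0 and 44 below. The libraries of the genotypes did not overlap for 20 genes that lay above WT and 30 that lay below, that is 27.8% and 41.7%, against 34.4% and 31.4% of all tested genes. All 72 genes were listed in every library.

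The calls depended on the scaling and on single libraries. Under quantile normalization 4 of the 72 genes were called higher and 9 lower, against 11.8% and 12% of all tested genes (2384 and 2432, where the main scaling called 2869 and 1777). Without fer-4 replicate 1 there were 1 higher and 5 lower calls, beside 12.4% and 7.2% of all tested genes. Without fer-4 replicate 2 there were 1 and 2, beside 9.31% and 4.75%. Without WT replicate 1 there were 0 higher and 2 lower calls, beside 5.89% and 2.11%, and without WT replicate 2 there were 0 and 1, beside 5.34% and 1.85%. These fits assume that a library left alone in its group varies like the others. CYCB2-5 kept its call in all 12 alternatives run, with adjusted p between 0.00369 and 0.0436, and KRP1 in 11 of them. The other 9 genes kept theirs in 5 to 9 of the 12, and each of these 9 lost it without either WT library.

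**Figure D1:**
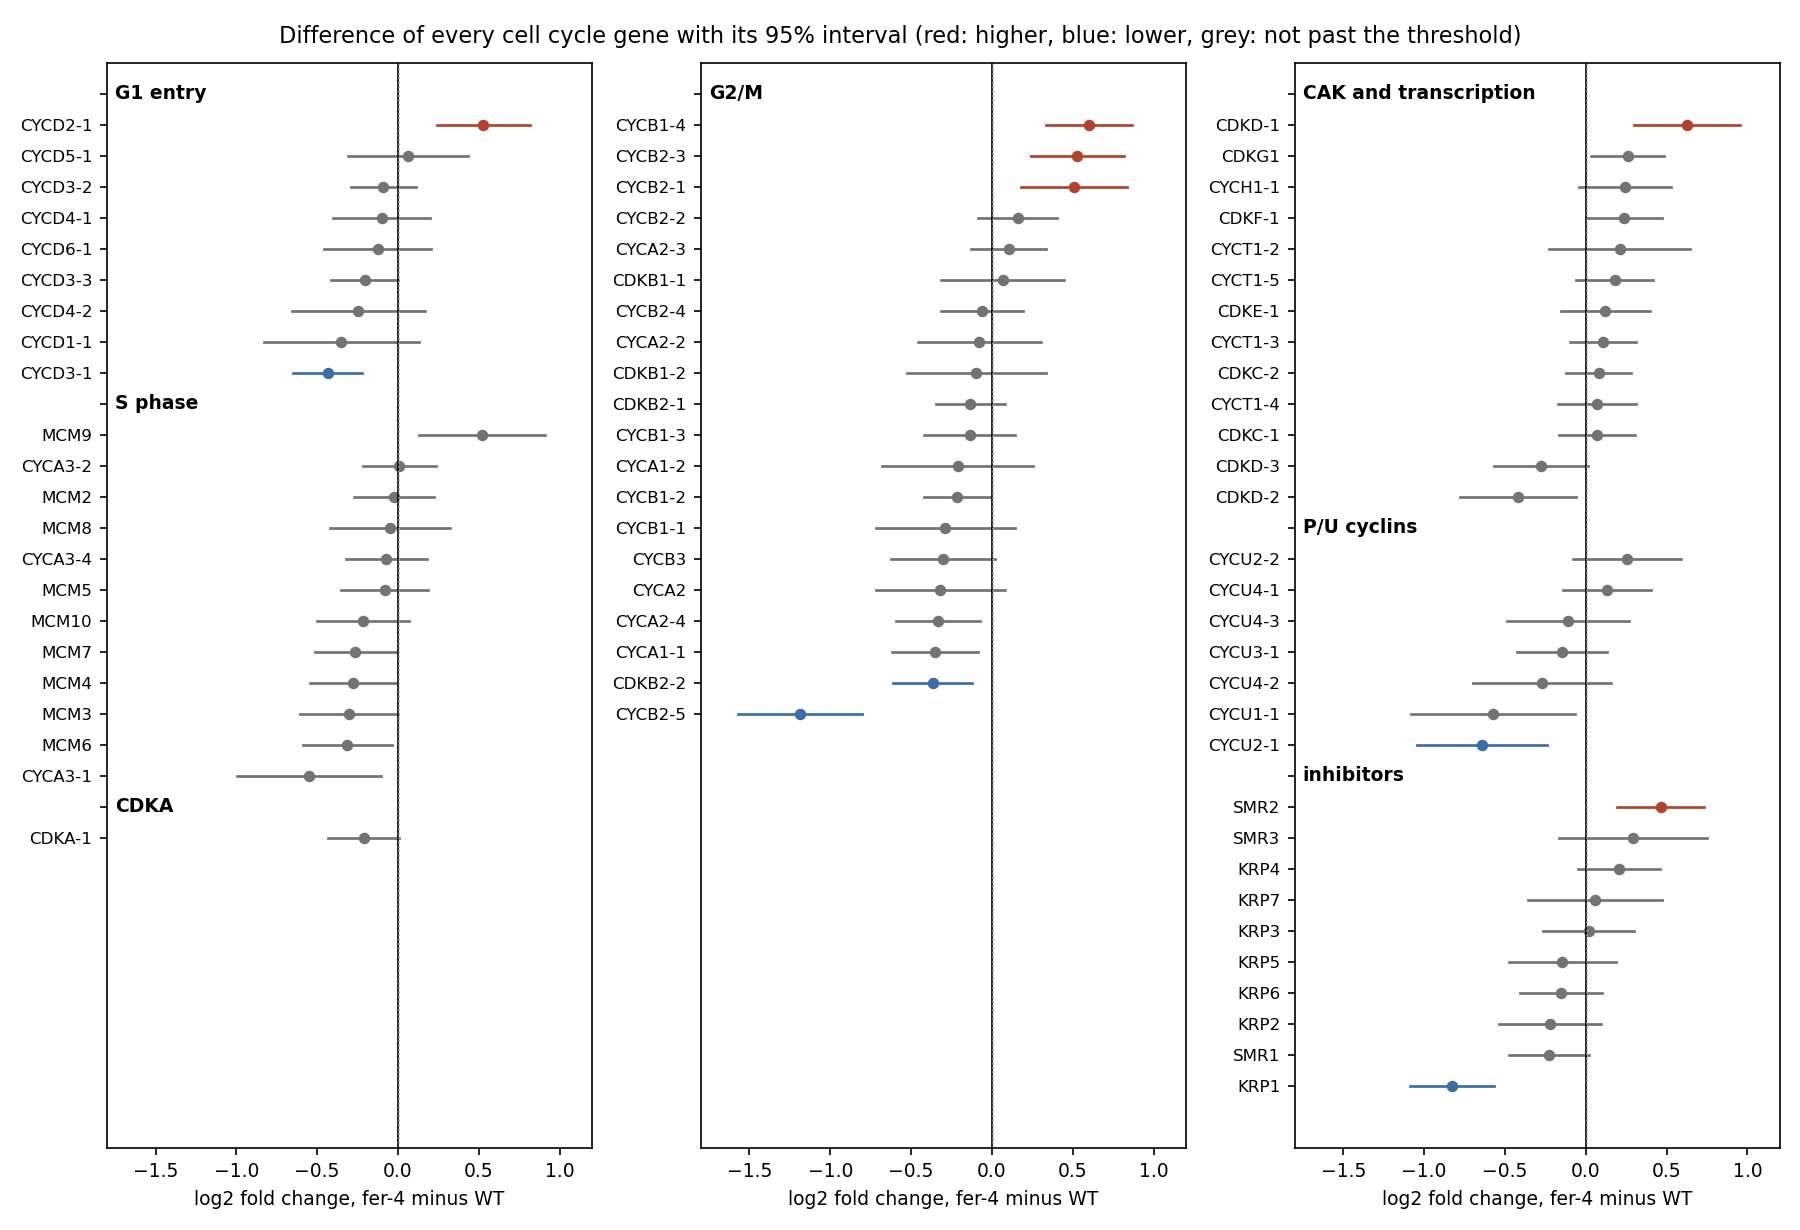
Log2 fold change, fer-4 minus WT, of each of the 72 cell cycle genes on the log2(FPKM + 1) scale, ordered by role, with bars for the 95% interval from limma. Red points mark the 6 genes called higher, blue points the 5 called lower and grey points the others. Most estimates lie within 0.5 of 0, and CYCB2-5 and KRP1 lie farthest below it.

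**Figure D2:**
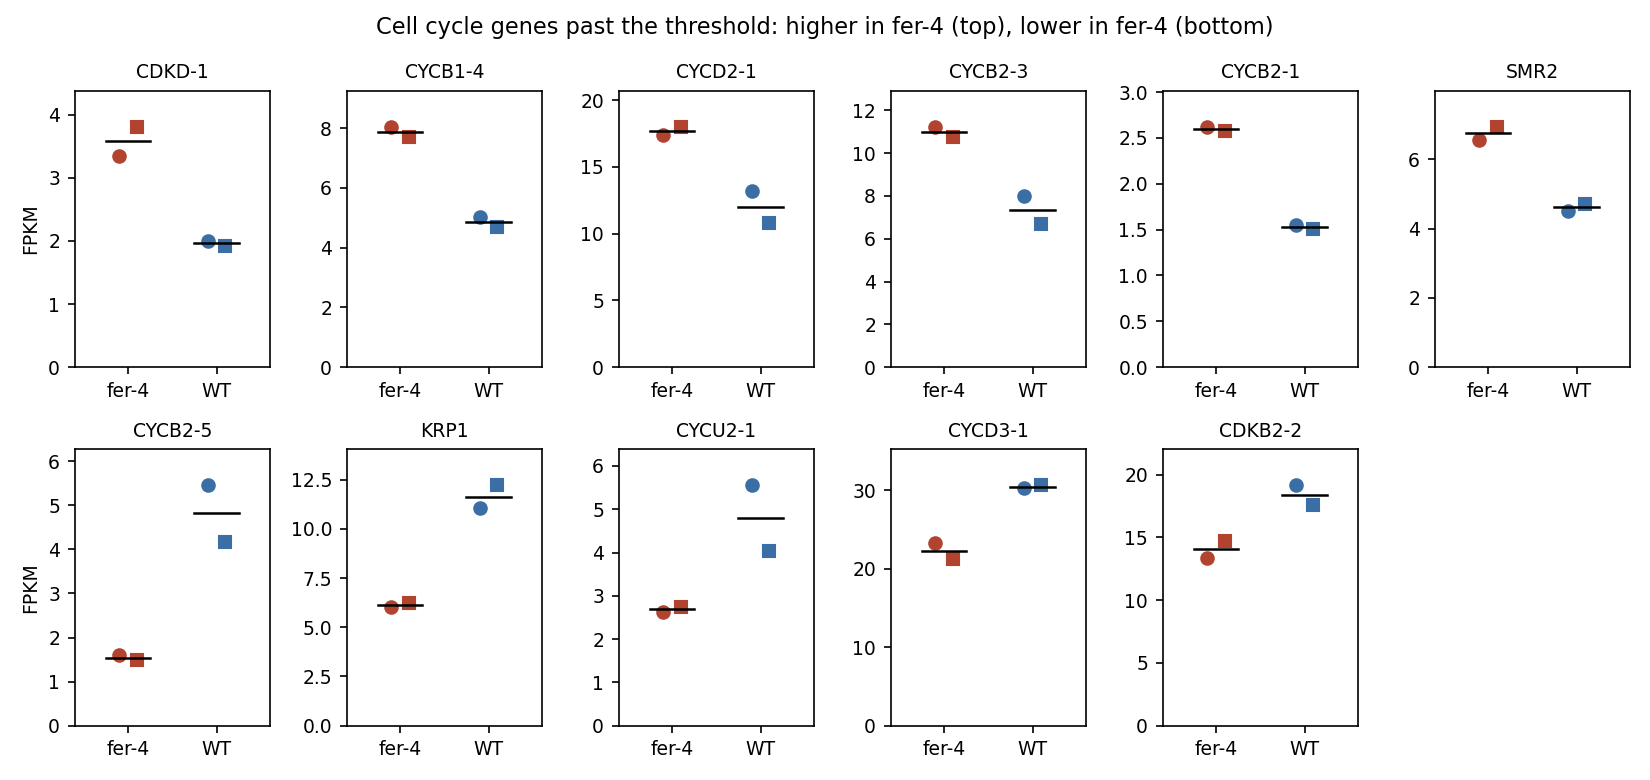
FPKM in each library of the 11 cell cycle genes called, with fer-4 left of WT in each panel. Circles are replicate 1, squares replicate 2 and lines the group means, and each panel has its own axis from 0. No fer-4 library overlaps a WT library in any of the 11 panels. The genes were chosen by the test on these same values, and 65.8% of all tested genes show no overlap.

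Among the G1 entry genes, the D-type cyclins, 1 of 9 was higher in fer-4 and 1 was lower. That is 11.1% each, against 14.1% of all tested genes called higher and 8.76% called lower. CYCD3-1 (AT4G34160), a cytokinin-responsive D-type cyclin that keeps cells in the mitotic cycle, had 23.3 and 21.3 FPKM in fer-4, against 30.2 and 30.6 FPKM in WT. Both fer-4 libraries lay below both WT libraries, with a log2 fold change of -0.44 ± 0.09 (SE; adjusted p = 0.0190). Its call was lost without WT replicate 1, WT replicate 2 or fer-4 replicate 2, where the adjusted p reached 0.125. In the annotation CYCD3-1 overlaps a gene on the same strand, AT4G34150, which had 165.6 and 145.2 FPKM in fer-4, against 115.2 and 126.8 FPKM in WT, and its part in the CYCD3-1 values was not tested.

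The other CYCD3 genes, which act together with CYCD3-1 in leaf and cambium growth, also lay lower in fer-4 without passing the test. CYCD3-2, the highest of all 72 genes, had 46.0 and 48.7 FPKM in fer-4, against 49.7 and 51.4 FPKM in WT, a log2 fold change of -0.09 with a 95% interval of -0.29 to 0.11. CYCD3-3 had 18.1 and 17.5 FPKM in fer-4, against 20.8 and 20.6 FPKM in WT, a difference of -0.21 with an interval of -0.41 to -0.002. For all of these 3 genes the fer-4 libraries lay below the WT libraries, against 31.4% of all tested genes. The summed level of the 3 genes was 87.3 and 87.5 FPKM in fer-4, against 100.7 and 102.7 FPKM in WT.

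CYCD2-1 (AT2G22490), a D-type cyclin known to respond to sucrose, moved the other way. It had 17.4 and 18.0 FPKM in fer-4, against 13.2 and 10.8 FPKM in WT, a log2 fold change of 0.53 ± 0.12 (SE; adjusted p = 0.0261). Both fer-4 libraries were above both WT libraries, and the WT libraries were the more spread. The call was lost without any 1 of the 4 libraries, where the adjusted p lay between 0.0526 and 0.137, and with no filter on low values. The remaining 5 D-type cyclins, CYCD1-1, CYCD4-1, CYCD4-2, CYCD5-1 and CYCD6-1, had log2 fold changes between -0.35 and 0.06 and none passed the test. Over the 9 genes the median was -0.13, with 7 estimates below 0.

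No S-phase gene passed the test, among 9 MCM genes and 3 A3-type cyclins. MCM2 to MCM7 form the ring helicase that opens DNA at replication origins, and their 6 genes are classical E2F targets. For MCM3, MCM4, MCM6 and MCM7 (66.7% of the 6) the fer-4 libraries lay below the WT libraries, against 31.4% of all tested genes. All 6 estimates were below 0, with a median of -0.27. MCM7, the highest of them, had 11.6 and 11.1 FPKM in fer-4, against 14.7 and 13.0 FPKM in WT, a log2 fold change of -0.26 with a 95% interval of -0.52 to -0.01 (adjusted p = 0.123). MCM6 had 5.19 and 5.44 FPKM in fer-4, against 7.16 and 6.54 FPKM in WT, a difference of -0.31 (adjusted p = 0.0980, and 0.0431 under quantile normalization). For MCM2 and MCM5 the groups overlapped, and without fer-4 replicate 2 the MCM2 estimate was above 0, at 0.03. The summed level of the 6 genes was 54.4 and 50.01 FPKM in fer-4, against 64.1 and 58.6 FPKM in WT. In the authors' files MCM7 shares its locus with a pair of neighbouring genes, and how fragments were divided among them is not stated. The loci of MCM8, CYCA3-4, CDKB1-2, CDKB2-1, CDKC-2 and CDKD-3 are each shared with a neighbouring gene too, with the same limit.

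The helicase genes share a feature that the choice by name did not use. In the 250 bases before the gene start, 5 of the 6, MCM2 to MCM6, hold an E2F motif, searched as TTTCCCGC, TTTCGCGC, TTTGCCGC or TTTGGCGC on both strands, against 1.42% of 19681 tested protein-coding genes. MCM7 holds none of these letters in that window. The matches begin between 14 and 170 bases before the start. They are printed here from the RefSeq annotation and sequence of TAIR10.1, on the strand of each gene from 5′ to 3′, with the motif in capitals and up to 15 bases on either side.
MCM2 (chr1:16970185-16970213, plus strand): aaattggcgccaataTTTCCCGCctaatc
MCM3 (chr5:18773854-18773891, minus strand): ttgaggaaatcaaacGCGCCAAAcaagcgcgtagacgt
MCM4 (chr2:7130742-7130779, minus strand): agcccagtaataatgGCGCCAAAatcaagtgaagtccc
MCM5 (chr2:3527501-3527534, minus strand): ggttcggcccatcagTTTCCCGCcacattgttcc
MCM6 (chr5:18010691-18010728, minus strand): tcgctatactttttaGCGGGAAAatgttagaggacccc
The motif reads in the gene's direction in MCM2 and MCM5 and in the other direction in MCM3, MCM4 and MCM6. None of the 6 genes passed the test, MCM7 without the motif included. Whether the motif goes with a call can therefore not be read from them.

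**Figure D3:**
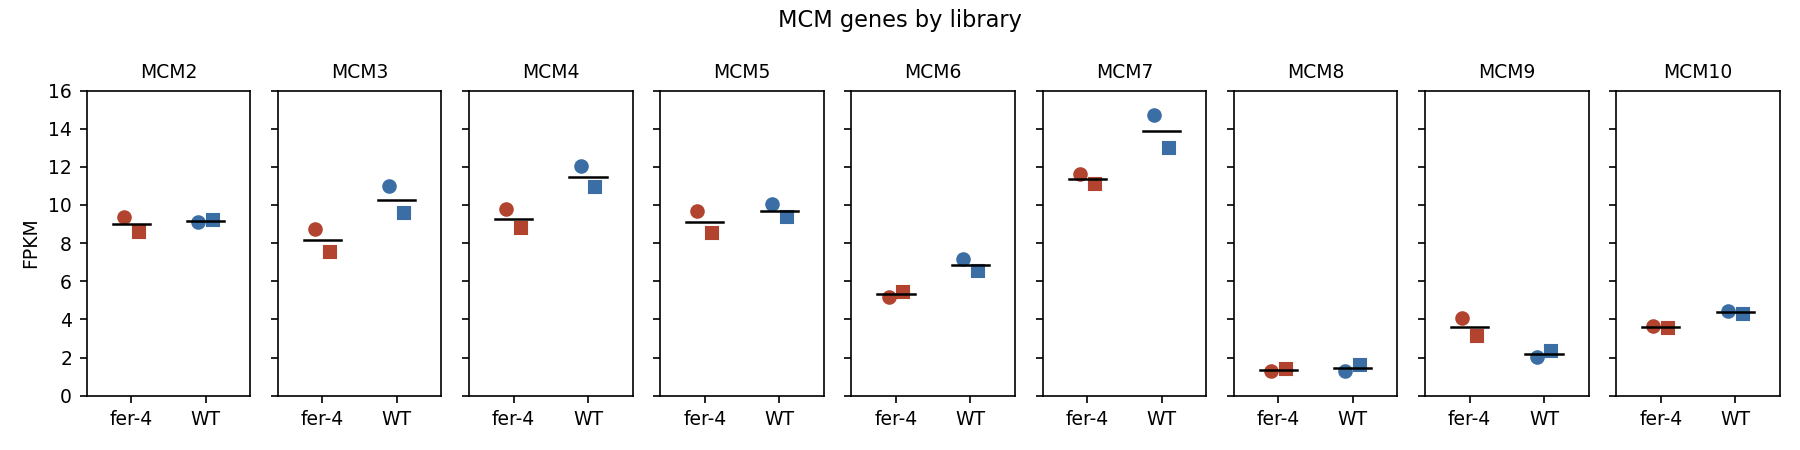
FPKM of the 9 MCM genes in each library, on a common axis from 0, with fer-4 left of WT. Circles are replicate 1, squares replicate 2 and lines the group means. The fer-4 points lie below the WT points for MCM3, MCM4, MCM6, MCM7 and MCM10, and above them for MCM9.

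Outside the helicase ring, MCM10, which helps origins fire, had 3.67 and 3.56 FPKM in fer-4, against 4.45 and 4.28 FPKM in WT, a log2 fold change of -0.22 (adjusted p = 0.234). MCM9, an MCM-like gene that is not part of the ring, had 4.07 and 3.11 FPKM in fer-4, against 2.01 and 2.36 FPKM in WT. Its groups did not overlap, but at a log2 fold change of 0.52 it missed the threshold (adjusted p = 0.0665). MCM8 overlapped between the genotypes, at 1.302 and 1.414 FPKM in fer-4, against 1.304 and 1.583 FPKM in WT. Of the A3-type cyclins, which peak around S phase, CYCA3-2 was the highest, with 20.4 and 22.6 FPKM in fer-4, against 21.1 and 21.6 FPKM in WT. CYCA3-4 had an estimate of -0.07. CYCA3-1 had the largest difference, with 2.89 and 1.83 FPKM in fer-4, against 3.77 and 3.96 FPKM in WT. That difference of -0.55 rested on widely spread fer-4 libraries and did not pass the test (adjusted p = 0.0806, and 0.0274 without fer-4 replicate 1).

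Of the 20 G2/M genes 3 were called higher (15%) and 2 lower (10%), close to the 14.1% and 8.76% of all tested genes, and 4 of the 5 were B-type cyclins. B-type cyclins accumulate from G2 into mitosis and are destroyed at anaphase. CYCB1-4 (AT2G26760) had 8.06 and 7.71 FPKM in fer-4, against 5.03 and 4.70 FPKM in WT, 1.62-fold higher by the means, with a log2 fold change of 0.60 ± 0.11 (SE; adjusted p = 0.0135). CYCB2-1 (AT2G17620) had 2.62 and 2.58 FPKM in fer-4, against 1.55 and 1.51 FPKM in WT, with a log2 fold change of 0.51 ± 0.13 (SE; adjusted p = 0.0426). In both genes the replicates were close and the groups lay well apart. The CYCB1-4 call was lost without WT replicate 1, WT replicate 2 or fer-4 replicate 1 (adjusted p up to 0.102), and the CYCB2-1 call without any 1 library (0.0983 to 0.162), under quantile normalization and with replicate numbers as a block.

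The other B1-type cyclins did not share that rise. CYCB1-2, the highest B-type cyclin here, had 19.3 and 19.8 FPKM in fer-4, against 23.2 and 22.6 FPKM in WT, a log2 fold change of -0.22 with a 95% interval of -0.42 to -0.01 (adjusted p = 0.115, and 0.0476 under quantile normalization). CYCB1-1, whose promoter and destruction box are widely used to mark dividing cells, had 7.97 and 6.59 FPKM in fer-4, against 10.7 and 7.66 FPKM in WT. These CYCB1-1 groups overlapped, and the estimate of -0.29 had an interval of -0.72 to 0.14. CYCB1-3 also overlapped, at -0.14, and CYCB2-2, CYCB2-4 and CYCB3 had estimates of 0.16, -0.06 and -0.30 that did not pass the test. CYCB1-2 has a stretch 97.7% identical over 390 bases to CYCB1-5, which was under the level limit.

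CYCB2-5 (AT1G20590) was the largest change of the 72 genes and CYCB2-3 (AT1G20610), its neighbour, went the other way. CYCB2-5 had 1.59 and 1.49 FPKM in fer-4, against 5.46 and 4.17 FPKM in WT, 3.13-fold lower by the means, with a log2 fold change of -1.19 ± 0.16 (SE; adjusted p = 0.00470). At the estimated depth these levels stand for about 24 to 85 fragments per library. CYCB2-3 had 11.2 and 10.7 FPKM in fer-4, against 7.98 and 6.70 FPKM in WT, a log2 fold change of 0.53 ± 0.12 (SE; adjusted p = 0.0259). Neither gene's groups overlapped. The CYCB2-3 call was lost without any 1 library (adjusted p 0.0668 to 0.147) and with no filter on low values.

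These neighbours are near copies, which bears on how their fragments were shared out. They lie on the minus strand of chromosome 1 in TAIR10.1, CYCB2-5 at chr1:7131166-7132465 and CYCB2-3 at chr1:7134659-7137828, with 2193 bases between them. Their coding sequences, of 798 and 1290 bases, align over 583 columns at 97.3% identity, with 6 mismatches, 10 gap columns and a longest identical run of 360. A coding stretch of 120 bases from each is shown, the first without gaps that holds the most mismatches for that length. Within this stretch, fragments can be told apart at 2 bases only, which are in capitals. The aligned part covers bases 708 to 1290 of the CYCB2-3 coding sequence and 192 to 764 of that of CYCB2-5. The rest of each coding sequence lies outside the alignment. The sequences are RefSeq's, 5′ to 3′ on the genes' strand and spliced, so the coordinates span an intron.
CYCB2-3 (chr1:7135178-7135380, minus strand): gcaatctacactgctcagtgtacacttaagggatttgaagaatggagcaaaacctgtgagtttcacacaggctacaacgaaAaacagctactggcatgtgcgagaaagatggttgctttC
CYCB2-5 (chr1:7131295-7131507, minus strand): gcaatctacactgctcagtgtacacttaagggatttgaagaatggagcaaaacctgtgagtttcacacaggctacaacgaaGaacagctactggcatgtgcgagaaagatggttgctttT
How the authors' counting treated fragments that match both genes is not stated. The summed level of the pair was 12.8 and 12.2 FPKM in fer-4, against 13.4 and 10.9 FPKM in WT, that is 12.5 ± 0.436 in fer-4 and 12.2 ± 1.81 in WT (SD, n = 2 each), so the sums overlapped. CYCB2-5 made up 12.4% and 12.2% of that sum in fer-4, against 40.6% and 38.4% in WT. The split between the copies differed while the FPKM sum did not differ beyond its spread, and the level of each copy alone is uncertain. FPKM is corrected for length, and the longest transcripts have 2011 bases for CYCB2-3 and 798 for CYCB2-5. A fragment moved from one copy to the other would change the sum, so like sums do not mean like fragment numbers. Without both genes, 5 of the other 70 were called higher and 4 lower (7.14% and 5.71%, against 14.1% and 8.76% of all tested genes).

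**Figure D4:**
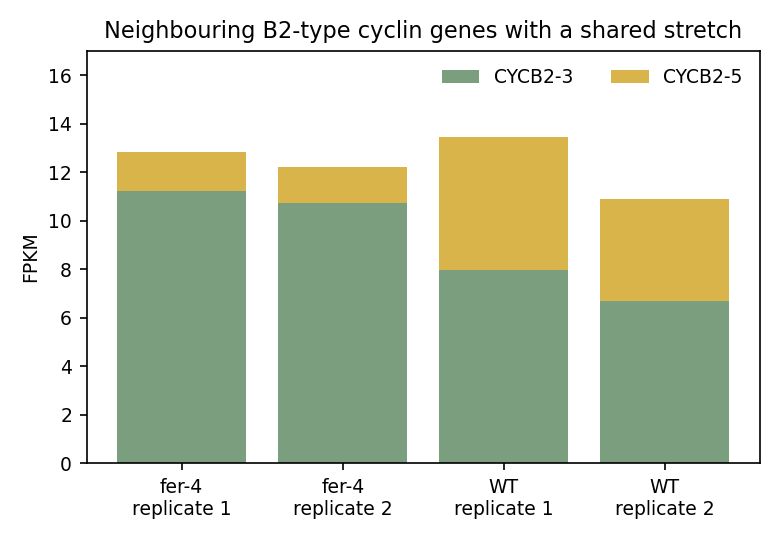
FPKM of CYCB2-3 and CYCB2-5 stacked in each library, fer-4 libraries left of WT libraries. The stacks are between 10.9 and 13.4 FPKM high in all 4 libraries, and the CYCB2-5 part is 12.4% and 12.2% of them in fer-4, against 40.6% and 38.4% in WT. The genes differ in length, so stack heights need not follow the fragment numbers of the pair.

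B-type cyclin promoters often hold the core of the MSA element, AACGG. It was found on either strand in the 250 bases before the start of 10 of the 20 G2/M genes, against 21.6% of tested protein-coding genes, and its longer form CNAACGG in 6 of the 10 B-type cyclins, against 4.98%. CYCB1-2, with 4 matches and no call, and CYCB2-1 and CYCB2-3, with 3 each and a higher level in fer-4, are shown for comparison, with the cores in capitals.
CYCB1-2 (chr5:1861704-1861861, minus strand): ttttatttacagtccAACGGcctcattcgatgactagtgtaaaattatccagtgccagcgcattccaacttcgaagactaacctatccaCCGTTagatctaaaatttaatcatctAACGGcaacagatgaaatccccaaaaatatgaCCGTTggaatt
CYCB2-1 (chr2:7663903-7664018, plus strand): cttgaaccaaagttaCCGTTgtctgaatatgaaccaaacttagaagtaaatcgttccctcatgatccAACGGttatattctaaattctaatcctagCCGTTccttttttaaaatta
CYCB2-3 (chr1:7137856-7137957, minus strand): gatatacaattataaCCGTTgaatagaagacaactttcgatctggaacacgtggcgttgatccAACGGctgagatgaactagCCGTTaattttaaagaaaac
CYCB1-4, called higher, and CYCB2-5, called lower, hold no match in that window. Of the B-type cyclins with 3 or 4 matches, CYCB1-1, CYCB1-2 and CYCB1-3 had estimates below 0 and CYCB2-1, CYCB2-2 and CYCB2-3 above 0. Among these only CYCB2-1 and CYCB2-3 passed the test, and the level of CYCB2-3 alone is uncertain. Whether the motif goes with a direction was not tested.

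CDKB2-2 (AT1G20930), a mitotic kinase that with its paralogue CDKB2-1 is needed in the shoot apical meristem, was the other G2/M gene called lower. It had 13.4 and 14.7 FPKM in fer-4, against 19.2 and 17.6 FPKM in WT, a log2 fold change of -0.37 ± 0.10 (SE; adjusted p = 0.0468). This was the call nearest to the threshold, and it was lost without any 1 library (0.0797 to 0.217), with no filter on low values, with replicate numbers as a block and with no mean-variance trend. CDKB2-1 had 23.6 and 22.2 FPKM in fer-4, against 24.5 and 25.9 FPKM in WT, with the groups apart but the estimate of -0.13 short of the threshold (adjusted p = 0.314). The paralogues are 86.8% identical over 927 bases, and their sum was 37.0 and 36.9 FPKM in fer-4, against 43.7 and 43.6 FPKM in WT. CDKB2-2 also overlaps AT1G20925 on the other strand, which was at 0 in 3 libraries and at 0.0385 FPKM in WT replicate 2. CDKB1-1 and CDKB1-2, kinases that also restrain endoreduplication, overlapped between the genotypes, with estimates of 0.07 and -0.10.

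The A1- and A2-type cyclins gave no call. CYCA1-1, an early mitotic cyclin, had 9.54 and 11.1 FPKM in fer-4, against 13.2 and 13.7 FPKM in WT, a log2 fold change of -0.35 (adjusted p = 0.0669, and 0.0381 under quantile normalization). CYCA2-4 had 6.88 and 6.28 FPKM in fer-4, against 8.48 and 8.61 FPKM in WT, a difference of -0.33 (adjusted p = 0.0720, and 0.0389 under quantile normalization). In both genes the fer-4 libraries lay below the WT libraries. CYCA2-3, which limits endoreduplication and is the highest of its family, had 14.9 and 14.2 FPKM in fer-4, against 14.0 and 12.9 FPKM in WT. The other 3 genes, CYCA1-2, CYCA2 and CYCA2-2, had estimates of -0.21, -0.32 and -0.08. Over the 20 G2/M genes the median log2 fold change was -0.14, with 14 estimates below 0. CDKA-1, the single A-type kinase that works in all phases, had 39.9 and 36.2 FPKM in fer-4, against 45.5 and 43.0 FPKM in WT, a difference of -0.21 with a 95% interval of -0.43 to 0.01 (adjusted p = 0.148).

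Of the 5 genes of CDK activation 1 was called higher (20%, against 14.1% of all tested genes). Of these 5 genes, 3 had estimates above 0 and 2 below. Their sums overlapped, at 47.3 and 44.9 FPKM in fer-4, against 48.7 and 41.8 FPKM in WT. CDKD kinases with cyclin H activate other CDKs and phosphorylate RNA polymerase II. CDKD-1 (AT1G73690) had 3.35 and 3.81 FPKM in fer-4, against 2.002 and 1.920 FPKM in WT, 1.83-fold higher by the means, with a log2 fold change of 0.63 ± 0.13 (SE; adjusted p = 0.0225). Both fer-4 libraries were clear of both WT libraries, but the call was lost without WT replicate 1, WT replicate 2 or fer-4 replicate 2 (adjusted p up to 0.125). A gene that overlaps it on the other strand, AT1G73700, was near 0, at 0.544 and 0.197 FPKM in fer-4, against 0.232 and 0.724 FPKM in WT. Its relatives CDKD-2 and CDKD-3 had estimates of -0.42 and -0.27, with adjusted p of 0.0925 and 0.154. The CDKD-2 values were 8.60 and 8.41 FPKM in fer-4, against 13.5 and 10.13 FPKM in WT. CDKF-1, a plant-specific kinase that activates CDKD, had 19.7 and 18.1 FPKM in fer-4, against 16.4 and 15.3 FPKM in WT, and CYCH1-1 had an estimate of 0.24, both short of the threshold.

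The transcription group, CDKC with the T-type cyclins, CDKE-1 of the Mediator complex and CDKG1, which acts in splicing, held 8 genes and no call. All 8 estimates were above 0, between 0.07 and 0.26, with a median of 0.11, and under quantile normalization 7 were above 0, with CDKC-1 at -0.01. Of all 20284 tested genes, 10299 had estimates above 0. For 6 of the 8 (75.0%) the fer-4 libraries lay above the WT libraries, against 34.4% of all tested genes. CDKG1, the highest, had 55.3 and 49.9 FPKM in fer-4, against 45.0 and 42.4 FPKM in WT, a log2 fold change of 0.26 with a 95% interval of 0.04 to 0.48 (adjusted p = 0.0949). CDKC-1 and CDKC-2 are 86.1% identical over 1312 bases, and CYCT1-4 and CYCT1-5 89.5% over 885, so their separate levels are less certain than their sums. The CDKC sum was 53.2 and 52.6 FPKM in fer-4, against 51.5 and 48.6 FPKM in WT.

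The U-type cyclins, also called P-type and related to the yeast phosphate-signalling cyclin Pho80, gave 1 call among 7. This lower call is 14.3% of the 7, against 8.76% of all tested genes. CYCU2-1 (AT2G45080) had 2.62 and 2.75 FPKM in fer-4, against 5.56 and 4.04 FPKM in WT, 1.79-fold lower by the means, with a log2 fold change of -0.64 ± 0.16 (SE; adjusted p = 0.0387). Its WT libraries were the more spread, and the call was lost without any 1 library (0.0606 to 0.166) and with no filter on low values. CYCU1-1 had 12.7 and 8.58 FPKM in fer-4, against 13.9 and 18.4 FPKM in WT, an estimate of -0.57 short of the threshold (adjusted p = 0.101, and 0.0356 without fer-4 replicate 1). CYCU3-1, the highest of the family, overlapped between the genotypes at 22.8 and 24.9 FPKM in fer-4, against 29.0 and 24.3 FPKM in WT. The other 4, CYCU2-2, CYCU4-1, CYCU4-2 and CYCU4-3, had estimates between -0.27 and 0.25.

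Of the 10 CDK inhibitors, 1 was lower in fer-4 and 1 was higher (10% each, against 8.76% and 14.1% of all tested genes). KRP1 (AT2G23430), an inhibitor of CDKA complexes with D-type cyclins, had 6.003 and 6.214 FPKM in fer-4, against 11.04 and 12.22 FPKM in WT. The replicates were close and the groups far apart, at 1.90-fold lower by the means and a log2 fold change of -0.83 ± 0.11 (SE; 95% interval -1.09 to -0.57; adjusted p = 0.00425). Of the 11 genes called it had the smallest adjusted p, and it lost the call only without WT replicate 2 (0.0557). No other KRP gene passed the test. KRP2 to KRP7 had estimates between -0.22 and 0.21, and KRP4, the highest of the family by mean level, had 12.3 and 11.02 FPKM in fer-4, against 9.66 and 10.2 FPKM in WT.

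The KRP1 promoter is shown because this gene fell most clearly among the inhibitors and holds more matches to AACGG than any of the other 71 genes in the same window. The 250 bases before its start in TAIR10.1 are given 5′ to 3′ on the gene's strand, from RefSeq, with the 6 matches on either strand in capitals.
KRP1 (chr2:9978091-9978340, minus strand): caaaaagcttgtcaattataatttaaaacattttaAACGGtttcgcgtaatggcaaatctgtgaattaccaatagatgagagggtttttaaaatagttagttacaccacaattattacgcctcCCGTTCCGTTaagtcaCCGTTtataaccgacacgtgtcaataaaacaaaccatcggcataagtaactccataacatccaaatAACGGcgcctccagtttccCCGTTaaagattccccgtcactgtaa
These matches begin 215, 127, 122, 111, 45 and 26 bases before the start, and the window holds no match to the E2F letters or to CNAACGG. Among the KRP genes 4 of 7 hold at least 1 AACGG, against 21.6% of tested protein-coding genes, and KRP7, with 3, showed overlapping groups.

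SMR2 (AT1G08180), of the SIAMESE-related inhibitors that act where cells begin endoreduplication, had 6.56 and 6.94 FPKM in fer-4, against 4.52 and 4.72 FPKM in WT. It lay apart in all 4 libraries, with a log2 fold change of 0.46 ± 0.11 (SE; adjusted p = 0.0317). The call was lost without any 1 library (0.0743 to 0.149), under quantile normalization, with no filter and with replicate numbers as a block. SMR1, also known as LGO, a gene required for giant cells of the sepal, was the highest inhibitor, with 21.3 and 18.3 FPKM in fer-4, against 23.2 and 23.5 FPKM in WT, and did not pass the test (-0.23, adjusted p = 0.160). SMR3 overlapped between the genotypes, with an estimate of 0.29. The summed level of the 10 inhibitors was 81.2 and 73.4 FPKM in fer-4, against 83.0 and 84.5 FPKM in WT, and their median log2 fold change was -0.06.

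Set against each other, the phases had similar medians, and a difference between phases was not tested. The median log2 fold change was -0.13 for G1 entry, -0.15 for S phase and -0.14 for G2/M, and these medians have no test of their own. Median differences of replicate 2 from replicate 1 for G1 entry were 0.05 in fer-4 and -0.15 in WT. They were -0.08 and -0.06 for S phase, and -0.06 and -0.09 for G2/M, in the same order. Over these phases and CDKA-1, 32 of 42 estimates were below 0, against 49.2% of all tested genes, and 21 genes (50%) had both fer-4 libraries below both WT libraries, against 31.4% of all tested genes. Of the 42 genes 4 were called higher (9.52%, against 14.1% of all tested genes) and 3 lower (7.14%, against 8.76%). Summed G1 entry levels were 131.6 and 130.7 FPKM in fer-4, against 143.7 and 143.2 FPKM in WT. Summed S-phase levels were 94.3 and 89.9 FPKM in fer-4, against 104.8 and 100.02 FPKM in WT. The G2/M sums were 182.2 and 176.5 FPKM in fer-4, against 200.6 and 186.4 FPKM in WT. The ratio of the G2/M sum to the S-phase sum within a library was 1.93 and 1.96 in fer-4, against 1.91 and 1.86 in WT with the fer-4 values slightly above the WT values.

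**Figure D5:**
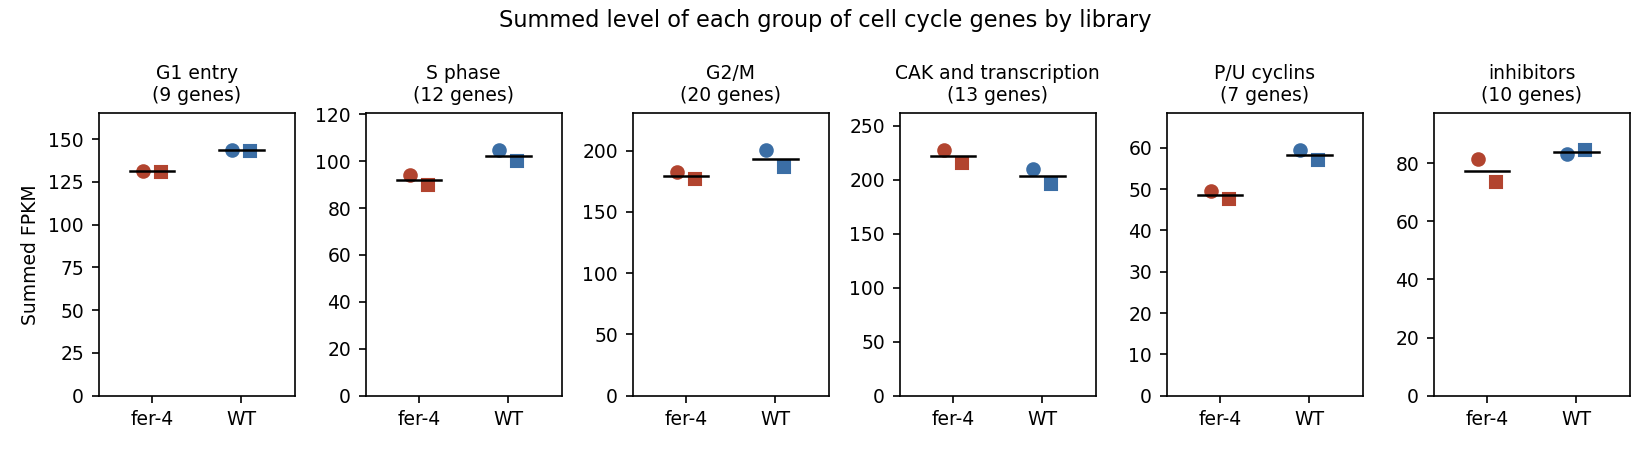
Summed FPKM of each group of cell cycle genes in each library, with fer-4 left of WT and each panel's axis starting at 0. Circles are replicate 1, squares replicate 2 and lines the group means. The fer-4 sums lie below the WT sums for G1 entry, S phase, G2/M, U-type cyclins and inhibitors and above them for CDK activation and transcription.

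Other genes of the cycle were read from lists of known regulators. The counts of these lists and of the marker lists stand beside 14.1% of all tested genes called higher and 8.76% called lower. None of the 9 RBR and E2F regulators passed the test, and RBR1 had 10.8 and 11.7 FPKM in fer-4, against 13.4 and 13.3 FPKM in WT (log2 fold change -0.23, adjusted p = 0.135). None of the 6 MYB3R and DREAM genes passed, nor any of 5 replication-dependent histone genes, 7 DNA damage response genes or 9 type-A cytokinin response regulators, the last being read-outs of a hormone that acts on CYCD3 genes. Their medians were -0.09, 0.00, -0.09, -0.08 and -0.14, in that order. Of 23 DNA replication genes 2 were lower (8.70%) and none higher, with a median of -0.07. PCNA, the sliding clamp of the replication fork, had 16.4 and 13.7 FPKM in fer-4, against 23.5 and 21.8 FPKM in WT (-0.57, adjusted p = 0.0196). FAS2, a subunit of the chromatin assembly factor CAF-1, had 3.599 and 3.011 FPKM in fer-4, against 5.62 and 5.34 FPKM in WT (-0.59, adjusted p = 0.0242). PCNA has a paralogue, PCNA2, 85.8% identical over 786 bases.

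The mitosis and cytokinesis list held MAD2, whose log2 fold change was larger in size than that of any of the 72 genes. Of its 18 genes 3 were higher (16.7%) and 1 was lower (5.56%), near the shares of all tested genes, with a median of -0.17. MAD2, a protein of the spindle checkpoint, had 28.0 and 26.3 FPKM in fer-4, against 10.5 and 9.21 FPKM in WT, a log2 fold change of 1.38 ± 0.10 (SE; adjusted p = 0.000710). CDC20-1, an activator of the anaphase-promoting complex that MAD2 inhibits, had 39.0 and 36.1 FPKM in fer-4, against 19.3 and 17.2 FPKM in WT (1.0004 ± 0.10, SE; adjusted p = 0.00164). It is 97.0% identical over 1366 bases to CDC20-2, so its own level is uncertain. HMGB13, an HMG-box protein that binds mitotic chromosomes, named outside the rule after its values were seen, was the other gene called higher (0.92, adjusted p = 0.00277). MAP65-3, which bundles microtubules in the phragmoplast, had 7.77 and 6.69 FPKM in fer-4, against 12.2 and 11.003 FPKM in WT (-0.61, adjusted p = 0.0162).

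Among 11 APC activators, WEE1, CKS and SIAMESE genes, 2 were higher (18.2%) and none lower, with a median of -0.01. SIM, the founder of the SMR family and a brake on mitosis in trichomes, had 21.7 and 21.3 FPKM in fer-4, against 15.04 and 16.14 FPKM in WT (0.44, adjusted p = 0.0190). FZR2, also called CCS52A1, which promotes endoreduplication, had 9.62 and 10.6 FPKM in fer-4, against 7.73 and 6.87 FPKM in WT (0.42, adjusted p = 0.0454). WEE1 and both CKS genes did not pass the test.

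Markers of tissues that hold dividing cells did not move alike. None of 9 root meristem markers passed the test, with a median of 0.07 and sums of 45.1 and 44.9 FPKM in fer-4, against 42.4 and 41.2 FPKM in WT. Of 5 tested shoot meristem and leaf primordium markers 3 were lower (60.0%), KNAT1 (-0.92, adjusted p = 0.00408), STM (-0.53, adjusted p = 0.0452) and ANT (-0.48, adjusted p = 0.0255). The sums of the 5 were 58.5 and 52.7 FPKM in fer-4, against 73.1 and 70.5 FPKM in WT, while WUS and CLV3 were at or near 0 in all libraries. Of 9 tested stomatal lineage markers 2 were lower (22.2%), FLP (-0.63, adjusted p = 0.0147) and ERL1 (-0.61, adjusted p = 0.0299), with sums of 34.5 and 35.2 FPKM in fer-4, against 42.0 and 45.0 FPKM in WT. None of 4 lateral root initiation markers passed, with sums of 3.93 and 3.33 FPKM in fer-4, against 3.42 and 3.24 FPKM in WT.

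Markers of the differentiated bulk of the seedling gave 1 call among 5 leaf mesophyll and 5 root tissue genes. The 5 leaf mesophyll markers summed to 13274 and 10474 FPKM in fer-4, against 14386 and 15872 FPKM in WT, with none past the test, 4 estimates below 0 and 1 above, at 0.73. The 5 root tissue markers summed to 2109 and 2422 FPKM in fer-4, against 1790 and 1791 FPKM in WT, with EXPA7, a root hair expansin, higher (0.51, adjusted p = 0.0169). Most of that sum came from 1 gene, with a mean of 1932 FPKM over the 4 libraries. Of the 5 estimates 4 were above 0 and 1 was below, at -0.13. The only seed storage gene above the level limit, AT2S1, had 1.34 and 1.05 FPKM in fer-4 and was not listed in WT, which counts as 0. Its mean of 0.599 FPKM passed the limit through the fer-4 libraries alone. The part of these marker levels in the values of the cell cycle genes was not tested.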

How the data were processed

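Whole-seedling mRNA of 2 fer-4 and 2 WT libraries was sequenced; the authors deposited gene-level FPKM values, 1 table per library, per the file headers. HISAT2 2.0.5, StringTie 1.3.3, CASAVA and TAIR10 are named in the submitters' processing notes, without settings. The annotation release, strand setting and treatment of multiply mapped fragments are not stated there. Genes absent from a table count as 0. The 20284 genes averaging 0.5 FPKM or more were compared as log2(FPKM + 1), a scale that understates changes of low genes, with limma-trend (limma 3.58.1, R 4.3.3; two-sided, Benjamini-Hochberg, threshold 0.05), and the procedure was tested on simulated data. An exact permutation of 2 against 2 libraries cannot go below p = 0.333, so it was not used. RefSeq TAIR10.1 matched 24039 identifiers, including all 72 genes, and left 213 unmatched; near copies were found with BLAST 2.17.0 (at least 85% identity over 100 bases). Groups followed the labels. Values in every library are given for each gene called and, per family, for the highest gene and the gene with the largest difference, and up to 4 called genes per list. The members, lists and tests were chosen with earlier results of these data known. Alternatives tried were the pseudocount (0.1 and 5), the level filter (1 FPKM and none), quantile and median-ratio scaling, no mean-variance trend, a replicate block and each library left out. From 9 listed replication-dependent histone genes 4 were left out, because the files name them differently.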

Additional observations from a re-analysis of the deposited data

How the results depend on the processing

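Depth is estimated, not counted, and 2 libraries per genotype limit every call. Calls over all tested genes numbered 4646, and 1459 to 3967 when 1 library was left out; without WT replicate 1 or WT replicate 2 there were 1622 and 1459, and without fer-4 replicate 2 there were 2852. Cell cycle genes called higher numbered 6, and 0 to 1 without 1 library, and those called lower 5, and 1 to 5. With no filter on low values there were 3 higher and 3 lower, and under quantile normalization 4 and 9, with a median over all tested genes of -0.07, where the main scaling gave 0.01. Quantile normalization moved the medians to -0.24 for G1 entry, -0.256 for S phase, -0.213 for G2/M and -0.169 for inhibitors, and a pseudocount of 5 moved S phase to -0.09. Without 1 library the medians lay between -0.192 and -0.108 for G1 entry, -0.2 and -0.142 for S phase, -0.234 and -0.075 for G2/M, and -0.098 and 0.004 for inhibitors.

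None of the 11 genes called turned direction under the alternatives run, and some genes that were not called did. Under quantile normalization these were CYCA3-2 (-0.060), KRP7 (-0.078), CDKB1-1 (-0.001), CYCD5-1 (-0.032), CDKC-1 (-0.009) and KRP3 (-0.100). With 1 library left out the ranges that crossed 0 were those of MCM2 (-0.081 to 0.029), CYCA3-2 (-0.061 to 0.08), KRP7 (-0.101 to 0.218), CYCB2-4 (-0.132 to 0.012), CYCA1-2 (-0.426 to 0.004), CDKB1-2 (-0.342 to 0.149), MCM8 (-0.132 to 0.033), CDKB1-1 (-0.125 to 0.256), CYCD5-1 (-0.098 to 0.221), CYCA2-2 (-0.237 to 0.081) and CYCU4-3 (-0.228 to 0.011). The cause of these changes was not tested. The labels do not say that a replicate number marks a shared batch, and deviations of same-numbered libraries correlated at -0.21 across genes. With the replicate number as a replicate block, 4 cell cycle genes were higher and 4 lower, of 3877 calls in all. With crossed numbers, an alternative chosen after seeing the data, 6 were higher and 7 lower, of 5860 in all.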

Other observations

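Replicates of the cell cycle genes were not spread evenly about each other. In fer-4, 48 of the 72 genes were lower in replicate 2 than in replicate 1 (66.7%, where all tested genes gave 47.1%), and in WT 46 of 72 were (63.9%, where all tested genes gave 57.4%). The median difference of replicate 2 from replicate 1 was -0.05 in fer-4 and -0.08 in WT on the log2 scale, and -0.10 is the median difference of the 72 genes between fer-4 and WT. In CDK activation and transcription, 11 of 13 genes were lower in replicate 2 of fer-4 and 10 of 13 in replicate 2 of WT, with median differences of -0.05 and -0.08.

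The groups of cell cycle genes took slightly different shares of their own total in the genotypes. G2/M genes made up 22.6% and 22.9% of the summed FPKM of the 72 genes in fer-4, against 23.7% and 23.0% in WT. S-phase genes made up 11.68% and 11.67% in fer-4, against 12.37% and 12.34% in WT. CDK activation and transcription genes made up 28.2% and 28.0% in fer-4, against 24.8% and 24.2% in WT. These shares depend on one another, since they add up to the whole, and were not tested.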
